A study of Mus musculus with 6 samples.

Results

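This report follows 43 genes of DNA replication and nucleotide supply in mouse CD8+ T cells. The genes were chosen by name with earlier results of these data known, so their counts beside all genes tested only describe the list. All 43 were found among the 25638 genes of the deposited expression table. The cells were OT-I cells, labelled wild type in genotype, whose transgenic T cell receptor recognises an ovalbumin peptide. In all 3 groups they were kept for 48 hours with that peptide, and they were purified again before RNA was isolated. The control group received vehicle, the TAN group received CD11b+ Ly6G+ cells with low Ly6C, and the TAMo group received CD11b+ Ly6G- cells with high Ly6C. Both added populations were sorted from the spleens, not the tumours, of mice bearing LLC (Lewis lung carcinoma) tumours. Each group had 2 libraries, and the labels do not say whether these came from separate cultures or animals, so p-values measure the spread between these libraries, which may be technical. Expression was given in FPKM, a read number scaled by the length of the gene and by the counted reads of the library, so that levels of different genes can be set side by side.

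A chromosome is copied once per division. In G1 the origin recognition complex, CDC6 and CDT1 load the ring of MCM proteins onto origins, and geminin blocks CDT1 after S phase begins. In S phase CDC45 and the GINS complex join the MCM ring to form the active helicase, primase and DNA polymerase alpha start each strand, and polymerases epsilon and delta extend it, held by the sliding clamp PCNA that replication factor C loads. Ribonucleotide reductase, thymidylate synthase, thymidine kinase and dUTPase supply the deoxynucleotides. Activated CD8+ T cells divide rapidly for several days, and many of these genes are known targets of E2F transcription factors.

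The libraries carried the markers of T cells, with all 10 markers of the list above 1 FPKM in every library, a summed level of 1680 to 1703 FPKM with vehicle, 1633 to 1642 with TAN and 1929 to 1946 with TAMo, and Cd8b1 at 208 and 208 FPKM with vehicle, 206 and 205 with TAN and 200.2 and 198 with TAMo. With TAMo 7 of the 10 rose and 3 fell: Cd5 rose 3.25-fold, Cd2 was 3.79-fold lower, and Cd8a went from 145 and 152 FPKM with vehicle to 94.5 and 95.1 (limma adjusted p = 5.67e-07). All 10 neutrophil markers stayed under 1 FPKM in every library and 6 were at 0 throughout, with a summed level of 0 with vehicle, up to 0.0739 FPKM with TAN and 0.31 to 0.531 FPKM with TAMo. Of 10 monocyte and macrophage markers 7 stayed under 1 FPKM in every library, among them Lyz2 and Csf1r, which are high in those cells, and the summed level was 3.29 to 3.79 FPKM with vehicle, 3.8 to 4.01 with TAN and 8.84 to 10.7 with TAMo. The TAMo rise of that sum came from Cd14, at 2.84 and 3.17 FPKM, and Ms4a6c, at 4.88 and 6.28 FPKM. Their part in the TAMo results was not tested. The summed B cell markers lay between 7.14 and 9.55 FPKM in all libraries. The 5 listed markers of erythroid precursors summed to between 0.837 and 6.09 FPKM, lowest with TAMo, and nearly all of that sum was Epor. Fitted as whole reads, the steps between low values gave between 41.7 M and 45.2 M counted reads per library. Even read numbers made up 98.8% of low values in TAMo replicate 1 and 60.2% to 63.7% in the other libraries. Odd read numbers were thus nearly absent in TAMo replicate 1, so its fitted 43.8 M, and read numbers taken from it, may be too high. The number of independent fragments in it is uncertain. Transcripts of the mitochondrial genome held 8.07% to 8.34% of all FPKM with vehicle and TAN and 1.20% and 1.32% with TAMo, and the part of this shift in the results below was not tested beyond the rescaling given with them.

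After co-culture with TAMos every one of the 43 genes was lower than with vehicle, while after co-culture with TANs most lay close to the vehicle level. Summed over the 43 genes, expression was 4362 and 4394 FPKM in the vehicle libraries, 4394 and 4397 FPKM in the TAN libraries, and 318 and 330.5 FPKM in the TAMo libraries. The median gene stood at 62.1 and 63.2 FPKM with vehicle, 62.7 and 63.4 with TAN and 5.73 and 6.31 with TAMo. All 43 genes passed the filter of at least 1 FPKM in at least 2 libraries, and 38 of them were above 1 FPKM in all 6. The fewest reads behind a member's value, by its exon length, were about 45 for Gins1 in TAMo replicate 1. Counting error at that number was small against these differences. Low read numbers in this library were nearly all even, so fewer independent fragments may stand behind the value.

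**Figure D1:**
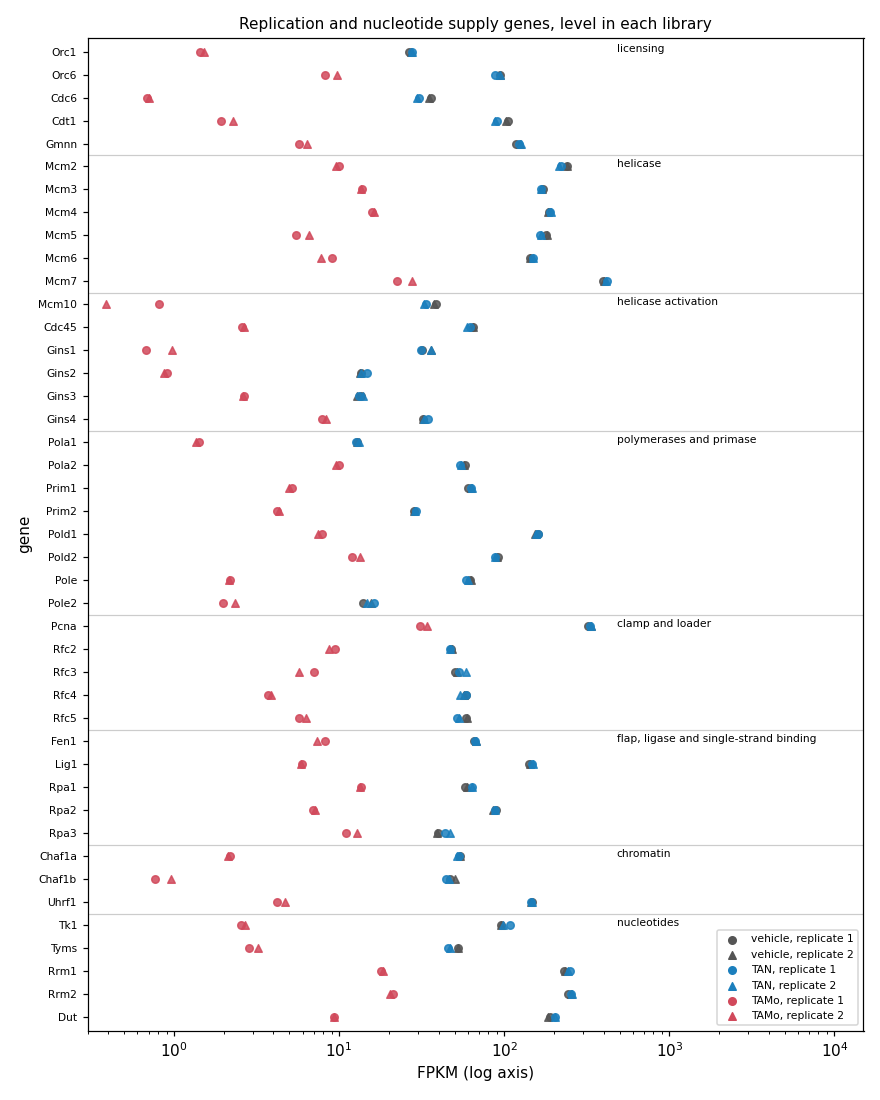
FPKM of each of the 43 genes (log axis) in the 6 libraries, grouped by role, with 1 point per library, grey for vehicle, blue for TAN and red for TAMo. The TAMo points lie left of all others in every row, between 0.385 and 34.1 FPKM, and the vehicle and TAN points nearly coincide.

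In TAMo against vehicle all 43 genes fell (limma, adjusted p between 1.98e-10 and 2.76e-07), in a comparison in which 40.7% of the 10727 genes tested fell and 45.7% rose. Both TAMo libraries lay below both vehicle libraries for all 43 genes, which held for 43.7% of all genes tested. The median change of the 43 was -3.56 on the log2(FPKM + 1) scale, with standard errors of 0.0277 to 0.113, against 0.06 for all genes tested. A change of -2 or more extreme was reached by 40 of the 43 and by 4.45% of all genes tested, and 16 of the 43 reached -4. As plain ratios of FPKM the TAMo level was 1.57% of vehicle for the most reduced gene, 6.59% for the median gene and 30.4% for the least reduced, and it was under 10% for 30 genes and at least 20% for 3. In these bulk samples fewer cells in cycle and less of each transcript per cell cannot be told apart. With libraries rescaled to one FPKM sum the median of all genes rose to 0.239, that of the 43 was -3.367, and all 43 still fell.

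**Figure D2:**
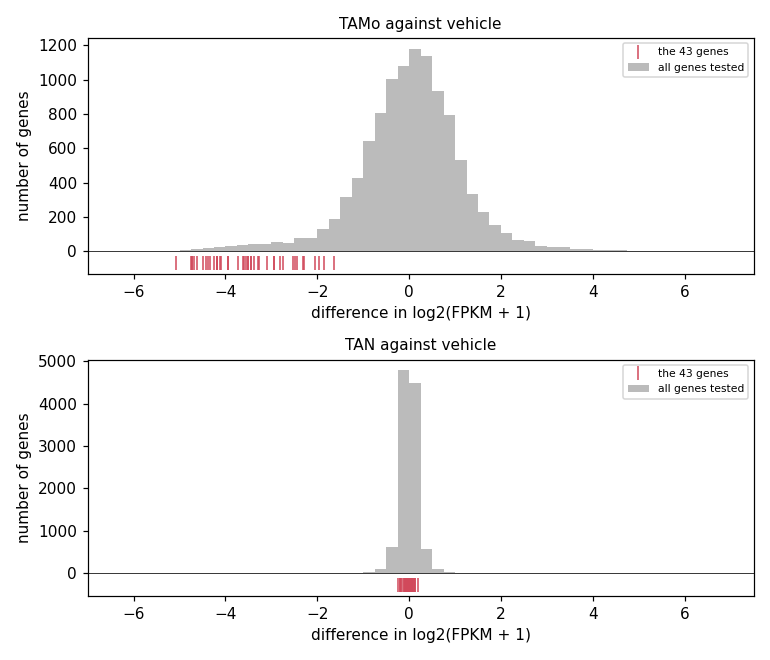
Number of tested genes (grey bars, bins of 0.25) by difference in log2(FPKM + 1), TAMo against vehicle above and TAN against vehicle below, with each of the 43 genes as a red tick. The ticks lie between -5.07 and -1.64 in the upper panel and between -0.24 and 0.20 in the lower.

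The promoters of these genes held E2F words and CCAAT boxes in a larger share than promoters at large, by counts that were not tested. RefSeq sequences on GRCm38.p6 were matched by symbol for 35 of the 43 genes, with 41 promoters, and the 250 bases before each start were searched on both strands. An E2F word (any of TTTGGCGC, TTTCCCGC, TTTGCCGC and TTTCGCGC) was present in 9 of the 41, or 22%, against 1.9% of all 32851 promoters. Those promoters belonged to 27025 genes and were not limited to the 10727 genes tested for expression. A gene with several starts counted more than once. The CCAAT box, the word CCAAT, was present in 24, or 58.5%, against 33.8%. The cell cycle homology region, searched as TTTGAA or TTCGAA, was present in 17.1% of both. In 60 promoters matched for 49 of the 57 other replication genes described further on, the shares were 13.3% for E2F words, 38.3% for the CCAAT box and 15% for the cell cycle homology region. These are descriptions of letters, not of binding. The 160 bases before the start are printed for 7 genes, to show how the words are arranged. E2F words and CCAAT boxes (ATTGG on the other strand) are in capitals. All 43 genes fell with TAMo, so printed examples with and without the words cannot show whether the words matter. Mcm5 (chr8:75109349-75109508, plus strand) holds 2 overlapping E2F words and 2 CCAAT boxes, and Mcm6 (chr1:128359706-128359865, minus strand) holds 3 E2F words, of which 2 overlap, and 2 CCAAT boxes. Pola1 (chrX:93632156-93632315, minus strand) has 1 of each. Mcm3 (chr1:20820313-20820472, minus strand) has 3 CCAAT boxes and Rrm1 (chr7:102441535-102441694, plus strand) has 2, with no E2F word. Cdt1 (chr8:122567855-122568014, plus strand), the gene with the largest change on the log2(FPKM + 1) scale, holds neither in this window. Pold4 (chr19:4231733-4231892, plus strand) is not among the 43 and rose with TAMo, as given further on. It has 1 CCAAT box in this window and 2 in the 250 bases searched.
Mcm5: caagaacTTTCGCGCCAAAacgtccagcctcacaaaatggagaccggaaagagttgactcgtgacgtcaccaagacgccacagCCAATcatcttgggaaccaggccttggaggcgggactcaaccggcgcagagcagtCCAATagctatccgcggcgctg
Mcm6: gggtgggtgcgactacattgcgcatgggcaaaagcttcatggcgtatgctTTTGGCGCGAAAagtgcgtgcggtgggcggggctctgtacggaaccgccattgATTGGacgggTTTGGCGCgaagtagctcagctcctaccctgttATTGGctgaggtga
Pola1: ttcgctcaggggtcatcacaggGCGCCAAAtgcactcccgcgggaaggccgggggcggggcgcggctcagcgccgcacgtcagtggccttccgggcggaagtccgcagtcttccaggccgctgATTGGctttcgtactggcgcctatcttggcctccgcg
Mcm3: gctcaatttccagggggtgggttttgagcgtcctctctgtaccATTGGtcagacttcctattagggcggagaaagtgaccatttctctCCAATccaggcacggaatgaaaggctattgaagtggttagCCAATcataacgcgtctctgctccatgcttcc
Rrm1: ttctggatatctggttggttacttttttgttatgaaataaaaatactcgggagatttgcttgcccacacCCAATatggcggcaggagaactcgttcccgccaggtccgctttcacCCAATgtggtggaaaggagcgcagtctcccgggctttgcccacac
Cdt1: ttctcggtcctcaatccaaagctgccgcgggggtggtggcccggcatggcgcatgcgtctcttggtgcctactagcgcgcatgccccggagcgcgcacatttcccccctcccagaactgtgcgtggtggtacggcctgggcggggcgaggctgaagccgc
Pold4: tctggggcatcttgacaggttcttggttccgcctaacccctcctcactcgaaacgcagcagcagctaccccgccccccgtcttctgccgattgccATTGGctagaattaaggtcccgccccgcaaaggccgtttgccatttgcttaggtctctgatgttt

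Among the licensing genes, Cdt1 (GRCm38 chromosome 8, 122568015 to 122573554), whose product brings the MCM ring to the origin, stood at 105 and 102 FPKM with vehicle, 90.4 and 88.4 with TAN and 1.92 and 2.28 with TAMo. Its change with TAMo, -5.07 ± 0.0577 (SE, n = 2 per group, limma adjusted p = 7.05e-10), was the largest of the 43 on the log2(FPKM + 1) scale, which holds down the change of genes near or under 1 FPKM. As a ratio it was 49.2-fold lower, less than Mcm10, Chaf1b and Cdc6. Cdc6 (chromosome 11, 98907801 to 98923940), the ATPase that works with CDT1, was at 35.9 and 34.9 FPKM with vehicle, 30.3 and 29.5 with TAN and 0.686 and 0.709 with TAMo, 50.8-fold lower in the last. For both genes the 3 groups separated without overlap. Gmnn (chromosome 13, 24751845 to 24761923), which encodes geminin, the inhibitor of CDT1, was at 117 and 124 FPKM with vehicle, 122 and 127 with TAN and 5.72 and 6.41 with TAMo, a change of -4.1 ± 0.0546 (adjusted p = 1.29e-09). The inhibitor and the loader it inhibits fell together, and the difference between their changes was not tested. Orc6, the subunit of the origin recognition complex that fell least of the licensing genes, was at 94.6 and 94.3 FPKM with vehicle, 87.6 and 93.8 with TAN and 8.23 and 9.73 with TAMo, 10.5-fold lower. Orc1, whose product is the cell cycle regulated subunit of that complex, was 18.3-fold lower.

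Within a library a ratio of 2 genes does not depend on the library's scaling. Cdt1 to Gmnn was 0.897 and 0.823 with vehicle, 0.740 and 0.697 with TAN and 0.335 and 0.356 with TAMo. The groups did not overlap in this ratio, and with 2 libraries a group it was not tested.

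The 6 genes of the MCM ring were abundant with vehicle, between 144 and 401 FPKM, and lay between 5.45 and 27.7 FPKM with TAMo. Mcm5 fell most, from 178 and 181 FPKM with vehicle to 5.45 and 6.53 with TAMo, with 165 and 168 with TAN, and its change with TAMo was -4.69 ± 0.0663 (adjusted p = 1.52e-09). Mcm2 was at 239 and 239 FPKM with vehicle, 219.5 and 214 with TAN and 9.98 and 9.59 with TAMo, 24.5-fold lower than with vehicle. Mcm4 fell least, from 186 and 183 FPKM with vehicle to 15.8 and 16.3 with TAMo, with 189 and 192 with TAN, or 11.5-fold. The ring holds 1 copy of each subunit, and their transcripts were less even after TAMo: the highest of the 6 exceeded the lowest 2.76-fold and 2.79-fold with vehicle, 2.82-fold and 2.77-fold with TAN, and 4.11-fold and 4.23-fold with TAMo. Mcm7, the most abundant, carries the microRNAs Mir25 and Mir93 within its transcripts and overlaps Ap4m1 and Cops6 on the opposite strand.

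Genes that turn the loaded ring into a helicase diverged widely among themselves. Mcm10, an activator of the assembled helicase, was at 38.4 and 37.7 FPKM with vehicle, 33.5 and 32.8 with TAN and 0.808 and 0.385 with TAMo, the lowest residual share of all 43 genes, 1.57%. Its change was -4.63 ± 0.113 (adjusted p = 1.66e-08), and because both TAMo values lay under 1 FPKM the added 1 holds this change down. Gins4 was at 32.0 and 32.0 FPKM with vehicle, 34.4 and 32.7 with TAN and 7.85 and 8.36 with TAMo, 25.3% of vehicle. The subunits of the GINS complex therefore moved unequally: Gins1 was 41.3-fold lower, Gins2 15.2-fold, Gins3 5.03-fold and Gins4 3.95-fold. The highest of these 4 transcripts exceeded the lowest 2.38-fold and 2.80-fold with vehicle, and 11.7-fold and 9.57-fold with TAMo. Gins2 shares 2758 exonic bases with Gse1 on the opposite strand, and without a stated strand setting its reads cannot be separated from those of Gse1. Cdc45, the remaining part of the helicase, was 24.7-fold lower.

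Of the 8 polymerase and primase genes, those of the catalytic subunits of the leading and lagging strand enzymes fell more than the rest. Pole, the catalytic subunit of polymerase epsilon, was at 62.1 and 63.2 FPKM with vehicle, 58.8 and 60.5 with TAN and 2.19 and 2.15 with TAMo, a change of -4.33 ± 0.0396 (adjusted p = 3.82e-10). Pold1, the catalytic subunit of polymerase delta, was 20.4-fold lower. Pole2, a second subunit of polymerase epsilon, was at 14.0 and 15.5 FPKM with vehicle, 16.2 and 14.8 with TAN and 1.99 and 2.34 with TAMo, and its change of -2.32 ± 0.0824 was the smallest of the 8 on this scale, while as a ratio Pola2 fell least. Pold2 was 7.19-fold lower, the primase genes Prim1 and Prim2 12.2-fold and 6.67-fold, and the polymerase alpha genes Pola1 and Pola2 9.32-fold and 5.86-fold. The differences between genes were not tested. The median of the 8 was -2.65, against -3.95 for the MCM ring and -4.1 for licensing.

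Pcna (chromosome 2, 132249162 to 132253314), the sliding clamp, was the second most abundant of the 43 with vehicle, at 322 and 333 FPKM, and stood at 329 and 336 with TAN and 31.0 and 34.1 with TAMo. Its change was -3.29 ± 0.046 (adjusted p = 1.5e-09), and it was the most abundant of the 43 with TAMo. Rfc4, a subunit of the clamp loader, went from 58.4 and 57.2 FPKM to 3.71 and 3.88 with TAMo, with 59.0 and 53.9 with TAN. Rfc2 was at 47.9 and 48.0 FPKM with vehicle, 46.8 and 46.7 with TAN and 9.46 and 8.72 with TAMo, 5.28-fold lower, the smallest fall of this group. Rfc2 shares 952 exonic bases with Lat2 on the opposite strand, Rfc4 194 with Eif4a2 and Rfc5 499 with Wsb2. Of the 43 genes, 13 overlap exons on the opposite strand. Rfc3 and Rfc5 were 8.0-fold and 9.77-fold lower.

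Lig1, the ligase that seals Okazaki fragments, was at 141 and 144 FPKM with vehicle, 148 and 150.3 with TAN and 5.92 and 5.85 with TAMo, a change of -4.38 ± 0.0302 (adjusted p = 1.98e-10). Rpa3, the smallest subunit of the single-strand binding protein RPA, fell least of all 43, from 39.8 and 38.9 FPKM with vehicle to 11.0 and 12.9 with TAMo, with 43.8 and 46.8 with TAN. Its change with TAMo was -1.64 ± 0.0694 (adjusted p = 2.76e-07), and the groups did not overlap. RPA is a trimer that also serves DNA repair, and its genes kept unequal shares of the vehicle level: 30.4% for Rpa3, 22.9% for Rpa1 and 8.11% for Rpa2. Fen1, the flap endonuclease, was 8.54-fold lower and shares 2039 exonic bases with genes on the opposite strand.

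The 3 genes that restore chromatin behind the fork fell by -4.12 to -4.75, or 25.1-fold to 56.3-fold as ratios. Uhrf1, which directs maintenance DNA methylation, was at 147 and 145 FPKM with vehicle, 146 and 147 with TAN and 4.23 and 4.71 with TAMo. Chaf1b, a subunit of chromatin assembly factor CAF-1, was 56.3-fold lower, and Chaf1a, its large subunit, was at 54.0 and 53.9 FPKM with vehicle, 53.3 and 51.6 with TAN and 2.19 and 2.11 with TAMo, 25.1-fold lower. Chaf1a shares 4648 exonic bases with Ubxn6 on the opposite strand.

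Among the genes of nucleotide supply, Tk1, the thymidine kinase of dividing cells, was at 95.8 and 96.0 FPKM with vehicle, 108 and 98.4 with TAN and 2.54 and 2.70 with TAMo, a change of -4.74 ± 0.0522 (adjusted p = 6.82e-10). Dut, the dUTPase that keeps uracil out of DNA, was at 188 and 184 FPKM with vehicle, 204 and 202 with TAN and 9.28 and 9.36 with TAMo, a change of -4.18 ± 0.0278. Tyms, thymidylate synthase, was at 52.6 and 52.7 FPKM with vehicle, 45.8 and 46.6 with TAN and 2.85 and 3.23 with TAMo, 17.3-fold lower. Rrm2, the small subunit of ribonucleotide reductase, was at 244 and 253 FPKM with vehicle, 253 and 259 with TAN and 21.2 and 20.4 with TAMo, and its change of -3.52 ± 0.0321 was the smallest of the 5. The large subunit gene Rrm1 went with it: the ratio of Rrm2 to Rrm1 was 1.07 and 1.08 with vehicle, 1.01 and 1.05 with TAN and 1.18 and 1.11 with TAMo. The proliferation marker Mki67, which is not among the 43, was at 159 and 158 FPKM with vehicle and 4.12 and 4.58 with TAMo, 2.74% of the vehicle level.

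**Figure D3:**
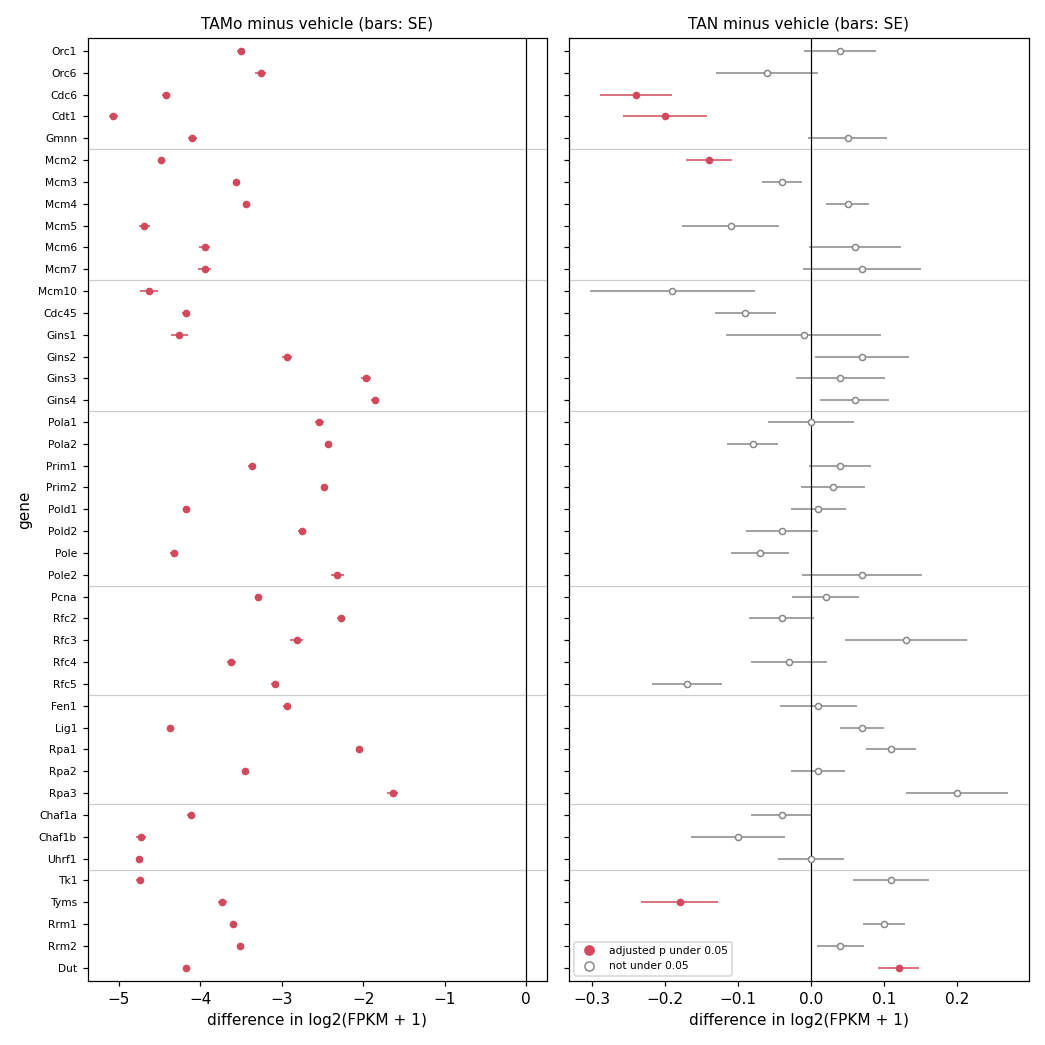
Difference in log2(FPKM + 1) with its SE for each of the 43 genes, TAMo minus vehicle on the left and TAN minus vehicle on the right, on axes of different range, with filled red points for an adjusted p under 0.05. All 43 points are filled on the left, from -5.07 to -1.64, and 5 are filled on the right, 4 of them below 0.

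A list of 57 other genes of replication and nucleotide supply was read beside the 43. It was chosen for their roles, also with earlier results of these data known. Their median change with TAMo was -2.05: 46 of the 57 fell, 9 rose and 2 stayed short of the threshold. Of all genes tested 40.7% fell and 45.7% rose in this comparison, with a median of 0.06. On this scale the largest falls among the fork genes were those of Exo1, an exonuclease (-4.47 ± 0.0589), and Clspn, which encodes the checkpoint mediator claspin (-4.46 ± 0.0414). Among origin and firing genes they were those of the helicase gene Recql4 (-4.09 ± 0.0822) and Ticrr, which encodes the origin firing factor treslin (-3.57). Hells, a chromatin remodeller (-4.04 ± 0.042), and Cdca7 (-3.95) fell most among the chromatin genes, and Shmt1 (-3.65) among the nucleotide genes. The 9 that rose were Pold4, Rrm2b, Dguok, Top1, Chtf8, Tk2, Nt5m, Samhd1 and Orc5, by 1.67 to 0.20, and the 2 that did not pass were Orc4 (-0.02) and Cmpk1 (-0.05).

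Inside several complexes the subunits parted. Of the origin recognition complex, Orc1 and Orc6 fell, whereas Orc4 was at 37.7 and 37.4 FPKM with vehicle and 36.5 and 37.4 with TAMo, and Orc5, at 23.3 and 23.5 FPKM with TAN, rose from 23.7 and 23.7 with vehicle to 27.6 and 27.2 FPKM (adjusted p = 0.00118). Orc2 and Orc3 fell by 0.41 and 0.22, the latter lost with libraries rescaled to one sum (-0.022, adjusted p = 0.665), and Orc4 was 0.177 there (adjusted p = 0.00177) and -0.088 with median-of-ratios scaling (adjusted p = 0.044). Orc1 to Orc4 was 0.704 and 0.733 with vehicle and 0.0394 and 0.0404 with TAMo. Of polymerase delta, Pold1, Pold2 and Pold3 fell, but Pold4, its smallest subunit, rose from 20.6 and 18.2 FPKM with vehicle to 66.1 and 61.3 with TAMo (1.67 ± 0.0697, adjusted p = 2.61e-07), with 19.7 and 18.2 with TAN. Pold1 exceeded Pold4 7.73-fold and 8.43-fold with vehicle, and the ratio was 0.119 and 0.122 with TAMo. Of polymerase epsilon, Pole4 fell by 0.60 and Pole3 by 2.03, and of replication factor C the large subunit gene Rfc1 fell by 0.80, less than Rfc2 to Rfc5. Orc2 to Orc4, Pold3, Pole3, Pole4 and Rfc1 were added to this account after their values were seen.

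Ribonucleotide reductase can use either of 2 small subunits, RRM2 of S phase or RRM2B, a p53 target that serves repair and mitochondrial DNA in cells out of cycle. Rrm2b was at 13 and 13.5 FPKM with vehicle, 13 and 11.9 with TAN and 26.7 and 28.4 with TAMo, a rise of 1.0 ± 0.0576 (adjusted p = 1.54e-06). The ratio of Rrm2 to Rrm2b was 18.9 and 18.7 with vehicle, 19.5 and 21.7 with TAN and 0.793 and 0.719 with TAMo, so that the order of the transcripts was turned round. With TAMo the fall of Rrm2 was 12.0-fold and the rise of Rrm2b 2.08-fold. The order of the thymidine kinase transcripts turned round as well. Tk2, the mitochondrial enzyme, rose from 11.7 and 11.8 FPKM with vehicle to 16.5 and 16.0 with TAMo (0.43 ± 0.0559, limma adjusted p = 0.000173). As ratios of TAMo to vehicle, Tk2 was 1.38-fold higher and Tk1 36.6-fold lower. Tk1 to Tk2 was 8.17 and 8.16 with vehicle, 11.6 and 11.4 with TAN and 0.154 and 0.169 with TAMo. Dguok, the mitochondrial deoxyguanosine kinase, rose 1.5-fold, and Samhd1, a deoxynucleotide hydrolase, 1.22-fold. Dck, the cytosolic deoxycytidine kinase, was 4.04-fold lower (-1.80 on the log2(FPKM + 1) scale).

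**Figure D4:**
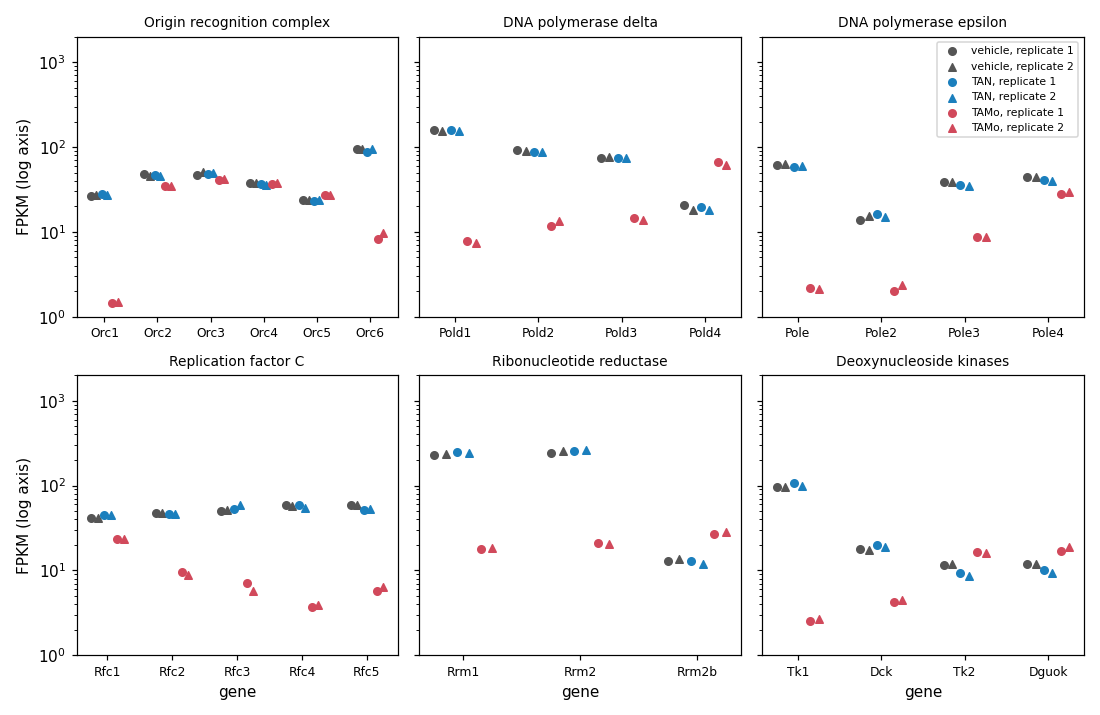
FPKM (log axis) of the subunits of 4 replication complexes, of ribonucleotide reductase and of 4 deoxynucleoside kinases in the 6 libraries, grey for vehicle, blue for TAN and red for TAMo. Pold4, Rrm2b, Tk2, Dguok and Orc5 are the genes whose red points lie above the grey, and Orc4 lies at one level in all groups on this scaling.

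With TAN most of the 43 genes stayed near the vehicle level. In TAN against vehicle 4 of the 43 fell, Cdc6, Cdt1, Tyms and Mcm2, and 1 rose, Dut, in a comparison in which 11.0% of all genes tested fell and 9.37% rose. The other 38 did not pass, and the median of the 43 was 0.008 against -0.005 for all genes tested. An unadjusted limma p under 0.05 was reached by 9 of the 43 and by 3737 of all 10727 genes tested. Both TAN libraries lay below both vehicle libraries for 16 of the 43 and above them for 15, and 12 overlapped. For all genes tested these shares were 33.3% below and 30.8% above. The largest change was that of Cdc6, -0.24 ± 0.0498 (adjusted p = 0.0186), from the values given above. Mcm2 changed by -0.14 ± 0.0312 (adjusted p = 0.0212), Cdt1 by -0.20 ± 0.0577 (adjusted p = 0.047), Tyms by -0.18 ± 0.0528 (adjusted p = 0.0497) and Dut by 0.12 ± 0.0278 (adjusted p = 0.0231). In each of these 5 both TAN libraries lay on the same side of both vehicle libraries. All 5 calls were lost when vehicle replicate 1, vehicle replicate 2, TAN replicate 1 or TAN replicate 2 was left out, each of which left no member called by limma (5 to 8 with an unadjusted p under 0.05, against 9 in all 6 libraries), and 11 members were called (4 higher, 7 lower) without TAMo replicate 1, without TAMo replicate 2 or with vehicle and TAN fitted alone. With no variance trend 1 member was called, and with a pseudocount of 0.1 or 0.5 or no filter on low values 3 were. The shares of all genes called in these alternative fits are not given here, so their member counts have no background beside them. The split of higher to lower calls moved with the scaling, from 1 and 4 to 3 and 2 with median-of-ratios scaling, and to 2 and 2 when each library was rescaled to the same sum.

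By role, 2 of 5 licensing genes, 1 of 6 MCM ring genes and, in opposite directions, 2 of 5 nucleotide genes passed with TAN. Of all genes tested 11.0% fell and 9.37% rose, and differences between roles were not tested. None of the 27 genes of helicase activation, polymerases and primase, clamp and loader, flap and strand binding, or chromatin passed in limma's test. Of these 27, 3 (Rfc5, Rpa1 and Rpa3) had an unadjusted p under 0.05, as did 3737 of the 10727 genes tested. Just past the threshold lay Rfc5 at -0.17 (adjusted p = 0.0522), Rrm1 at 0.10 (0.0536) and Rpa1 at 0.11 (0.0587). Rpa3 had a value of 0.20 ± 0.0694 and Mcm10 of -0.19 ± 0.113, both short of the threshold in the fit of all 6 libraries. Pcna (0.02 ± 0.046), Gmnn (0.05 ± 0.0546) and Mki67 (0.02 ± 0.0443) did not pass either.

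Of the 57 other replication genes, 7 fell and 2 rose with TAN, and 48 did not pass, numbers near or below the shares of all genes tested given above (11.0% lower and 9.37% higher). Asf1a, a histone chaperone, changed most, from 15.9 and 17.8 FPKM to 11.5 and 12.3 (-0.47 ± 0.0792, adjusted p = 0.00873), and leaving out vehicle replicate 2 or TAN replicate 1 ended that call (adjusted p = 0.0615 and 0.0641). It shares 1748 exonic bases with Mcm9 on the opposite strand. Tk2 fell from 11.7 and 11.8 FPKM to 9.37 and 8.62 (-0.35 ± 0.0559, adjusted p = 0.00696), a call kept in all alternatives run, and Dguok, its mitochondrial counterpart for purines, fell from 12.0 and 11.9 to 10.1 and 9.41 FPKM (adjusted p = 0.0286), a call that ended with no filter on low values (adjusted p = 0.0817) and on leaving out any single vehicle or TAN library (0.0752 to 0.148). In the fit of all 6 libraries both mitochondrial kinases were thus lower with TAN and higher with TAMo, each comparison using the same vehicle libraries. The Tk2 call with TAN lay close to the threshold in its weakest alternative. The further falls were those of Cmpk2, Recql4, Wdhd1 and Pole4, and the rises those of Chtf8 and Samhd1, with adjusted p between 0.0372 and 0.0479. Fewer of the 57 passed on leaving out any vehicle or TAN library. The shares of all genes called in those fits are not given here, so this change has no background beside it.

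Set directly against each other, TAN and TAMo differed in all 43 genes, each higher with TAN, with a median of 3.55 against -0.07 for all genes tested. In this comparison 40.6% of all genes tested were higher with TAN and 46.0% lower. The differences ran from 1.84 for Rpa3 to 4.87 for Cdt1. Of the 57 other replication genes 45 were higher with TAN, 9 lower and 3 did not pass.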

How the data were processed

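RNA from OT-I CD8+ T cells was sequenced in 6 libraries, 2 for each of 3 groups taken from the labels. The deposited values are FPKM, which the authors computed. The tools are featureCounts 1.5.0-p3, HISAT2 2.0.5 and CASAVA, with build mm10, per the submitters' processing notes. For their roles, annotation, gene lengths and strandedness nothing was given in the sources used here. Because each value is scaled by its library's counted reads, a shift in abundant transcripts moves all others.

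Genes reaching 1 FPKM in 2 or more libraries, 10727 in all, were tested on log2(FPKM + 1) with limma 3.58.1 in R 4.3.3 (1 model over all 6 libraries, mean-variance trend, 3 residual and 4.07 prior degrees of freedom), two-sided, with Benjamini-Hochberg adjustment over all genes and a threshold of 0.05. Folds are ratios of mean FPKM. The fit was tested on simulated data. Coordinates and exon overlaps come from GENCODE M21 (GRCm38) and promoters from RefSeq (GRCm38.p6). Depth was read from low values, up to 40 reads, of 7708 genes with 1 transcript, of which 98.6% to 99.0% were whole within 0.1. Named were the members with the largest and smallest TAMo change of each of 8 roles, those called with TAN, Gmnn, Pcna, Mki67, and of the other genes those that rose with TAMo and the 2 largest falls per sub-list, of which 1 gene is not reported here. Members and lists were chosen with earlier results of these data known. Tried were 17 alternatives.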

Additional observations from a re-analysis of the deposited data

How the results depend on the processing

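All 43 members fell in TAMo against vehicle, and all were higher with TAN than with TAMo, under each of the 17 alternatives. The TAMo median was -3.78 with a pseudocount of 0.1, -3.367 with libraries rescaled to one sum and -3.468 when that sum left out mitochondrial transcripts. The TAN against TAMo median was 3.382 with libraries rescaled to one sum and 3.855 and 3.723 for pseudocounts of 0.1 and 0.5. In TAN against vehicle 5 members were called, against 3 with a pseudocount of 0.1 or 0.5 or with no filter on low values, 1 with no variance trend and 11 with the 2 groups fitted alone, and between 0 and 11 when 1 library was left out. Of the other replication genes 9 were called there, against 2 with no filter, 4 with no variance trend, 14 with the 2 groups alone, and between 1 and 12 when 1 library was left out. The cause of these shifts was not tested. Without a library fewer samples enter the fit, and calls fell without a vehicle or TAN library and rose without a TAMo library. The shares of all genes called in the alternative fits of this section are not given, so the counts have no background beside them. Among the 22 members named by the rule, 4 values of TAN against vehicle that did not pass changed sign: Pcna lay between -0.003 (without vehicle replicate 1) and 0.048, Rfc4 between -0.099 and 0.03 (without TAN replicate 2), and Uhrf1 between -0.005 (without vehicle replicate 2) and 0.007, with -0.003 without TAN replicate 2, when 1 library was left out. In TAMo against vehicle Orc4, which did not pass, was 0.177 with libraries rescaled to one sum and 0.074 when that sum left out mitochondrial transcripts. Alternatives for single genes of the other replication list were added after the data were seen. The labels do not say whether the replicate number pairs the libraries. The differences between replicates correlated across genes with r of 0.057 for vehicle and TAN, 0.024 for vehicle and TAMo and 0.008 for TAN and TAMo. Such values show little shared difference between replicates but cannot show that the libraries were unpaired. With the number as a replicate block 5 members were called in TAN against vehicle, with Rfc5 (adjusted p = 0.0403) in and Cdt1 (adjusted p = 0.0588) out, 43 in each other comparison, with medians of 0.008, -3.561 and 3.548, and 8, 55 and 55 other replication genes. With 2 libraries a group, small TAN changes rest on each library.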
